A study of Mus musculus with 6 samples.

Results

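Claudins and their partners in the tight junction were examined in ATAC-seq of small intestinal crypts, an assay that uses a transposase to insert adaptors into accessible chromatin, so that reads pile up at open sites. The 10 genes were Cldn2, Cldn3, Cldn4, Cldn7, Cldn8, Cldn12, Cldn15, Cldn23, Tjp1 and Ocln, and a peak was included when the deposited table names it for a gene of this list. This gave 24 peaks at 9 of the 10 genes, out of 123510 peaks in the table, of which 61914 carried 1 of 18004 gene names. The study asked whether loss of the chromatin remodeler Smarcad1 from the intestinal epithelium changes accessibility. There were 3 wild type (WT) and 3 Smarcad1 knockout (KO) libraries, each made from nuclei of whole crypts. All mice were C57BL/6, and the study's methods describe its animals as males. The KO mice carried floxed Smarcad1 exons 12 to 14 and Cre driven by the Villin promoter, so that non-epithelial cells in a crypt preparation retain the gene. Age, and whether the WT mice carried floxed alleles without Cre, were not given in the sources used here.

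Tight junctions seal the space between neighbouring epithelial cells near their apical side and set which ions and molecules pass between them. Claudins are the membrane proteins that form the strands, and the mixture of claudins in a cell decides whether the seal is tight or selectively leaky. Occludin, encoded by Ocln, is another membrane protein of the strands, and Tjp1 encodes a zonula occludens scaffold that ties claudins and occludin to the actin cytoskeleton. In the intestine, Cldn2 and Cldn15 form pores for cations, Cldn2 being typical of crypts, whereas Cldn3, Cldn4 and Cldn8 are mostly regarded as sealing claudins. Cldn7 is abundant on the lateral membrane of intestinal epithelial cells, and Cldn12 has been linked to calcium passage.

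The promoter sequences of 5 of these genes are shown because they fall on both sides of a split in the peak table, with a peak over the window at Cldn3, Cldn4 and Tjp1 and none at Cldn2 and Cldn7. Each is the 250 bases before the RefSeq gene start on GRCm38.p6, written 5′ to 3′ on the gene's strand, with searched motifs in capitals.
Cldn2, chrX:139800558-139800807, plus strand: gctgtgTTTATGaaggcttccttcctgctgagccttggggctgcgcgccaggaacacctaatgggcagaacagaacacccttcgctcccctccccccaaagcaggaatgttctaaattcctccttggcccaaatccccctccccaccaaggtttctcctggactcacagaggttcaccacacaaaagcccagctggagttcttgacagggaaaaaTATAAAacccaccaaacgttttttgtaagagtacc
Cldn7, chr11:69964529-69964778, plus strand: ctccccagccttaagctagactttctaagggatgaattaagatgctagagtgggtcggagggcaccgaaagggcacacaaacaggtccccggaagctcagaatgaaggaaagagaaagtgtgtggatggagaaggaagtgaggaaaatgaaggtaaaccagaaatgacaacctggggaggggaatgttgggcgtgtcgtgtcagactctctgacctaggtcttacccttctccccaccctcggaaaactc
Cldn3, chr5:134985964-134986213, plus strand: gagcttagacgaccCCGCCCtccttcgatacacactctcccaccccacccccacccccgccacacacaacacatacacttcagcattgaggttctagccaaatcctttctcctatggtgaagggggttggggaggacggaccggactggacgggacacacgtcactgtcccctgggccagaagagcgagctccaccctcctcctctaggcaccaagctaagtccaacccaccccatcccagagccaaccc
Cldn4, chr5:134946935-134947184, minus strand: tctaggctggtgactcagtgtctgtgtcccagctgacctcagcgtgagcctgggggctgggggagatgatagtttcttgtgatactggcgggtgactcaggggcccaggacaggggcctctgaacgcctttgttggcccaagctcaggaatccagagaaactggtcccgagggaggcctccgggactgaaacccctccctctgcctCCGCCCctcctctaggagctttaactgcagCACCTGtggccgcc
Tjp1, chr7:65371245-65371494, minus strand: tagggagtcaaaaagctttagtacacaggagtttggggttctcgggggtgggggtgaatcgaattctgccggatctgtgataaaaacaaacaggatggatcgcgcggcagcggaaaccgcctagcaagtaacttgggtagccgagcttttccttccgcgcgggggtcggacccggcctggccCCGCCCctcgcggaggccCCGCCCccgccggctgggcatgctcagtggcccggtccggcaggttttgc
The motifs searched, on both strands, were an HNF4 core (CAAAGT, in 12.6% of 32851 RefSeq promoter windows of this length), a GATA site (AGATAA, 9.99%), a CDX2 site (TTTATG, 10.8%), a GC box (GGGCGG, 32.7%), an E-box (CAGGTG, 17.2%) and a TATA box (TATAAA, 12.4%). The TATA box read on its other strand (TTTATA) and the CDX2 site (TTTATG) share their first bases. In the windows shown, the Cldn2 capitals mark a CDX2 letter match and a TATA box, Cldn3 has 1 GC box, Cldn4 has a GC box and an E-box, Tjp1 has 2 GC boxes, and Cldn7 has no match. The Tjp1 window is rich in GC (63.2%) and holds 22 CpG dinucleotides, the Cldn3 and Cldn4 windows have a GC content of 60.8% and 62%, and the Cldn2 and Cldn7 windows have 52% and 51.2%, next to a median of 52.4% over all windows. The Ocln window, also under a peak, had a GC content of 64% with 14 CpG. The Cldn12 window lay under a peak as well, with a GC content of 42%. These matches describe letters only.

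The libraries differed in depth and composition. The WT libraries held 6180717 to 16301164 reads in peaks and the KO libraries 4339306 to 7721797, and a single read was worth 1.00 to 3.99 units on the normalized linear scale. The first principal component of all peaks held 49.4% of the variance. WT2 (116) and KO2 (116) lay at its high end, and KO3 (-139) and WT3 (-77.6) lay toward its low end. WT1 (-22.8) and KO1 (6.38) lay between. The targeted gene could not check the labels, because none of the 4 peaks overlapping Smarcad1 lay over exons 12 to 14. Of 19 markers of small intestinal epithelium, 14 had a peak with their name, and the strongest had a median WT level of 8.44 (log2). Epcam, Vil1, Ascl2, Muc2 and Alpi had none. Of 12 leukocyte markers 5 had a peak (median 6.05), of 8 mesenchymal markers 8 did (6.57) and of 6 endothelial markers 6 did (6.62). The summed level of the leukocyte markers was 9.11 to 9.33 in WT and 9.09 to 9.32 in KO, that of the mesenchymal markers 10.16 to 10.59 and 10.16 to 10.68, and that of the endothelial markers 10.43 to 10.59 and 10.37 to 10.66. A lower value in a whole crypt library cannot be told apart from fewer cells in which the site is open.

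Peaks were spread unevenly over the genes. Tjp1 had 6 peaks and Ocln 5, Cldn2 had 3, Cldn3, Cldn4, Cldn12 and Cldn23 had 2 each, and Cldn7 and Cldn8 had 1 each. The 2 longest genes held the most, and per length of the annotated gene the order changed. Tjp1 spans 232 kb and had 0.259 named peaks per 10 kb, and Ocln, at 56.2 kb, had 0.889. The Tjp1 value leaves out 11 peaks without a gene name that also lay inside this span, so it understates the density of peaks there. Cldn3, 1.26 kb long, had 15.9 peaks per 10 kb, and Cldn4 and Cldn23 had 11.01 and 10.8. These values divide by gene length alone, although 1 of the 2 peaks of each of these genes lay outside the gene. The order per length therefore rests partly on peaks beside short genes. Cldn15, on chromosome 5 from 136966616 to 136975858 (GRCm38), had no peak of its name, and the only peak within 5 kb of it lay upstream, was named for the neighbouring gene Fis1 and had a WT level of 8.42 ± 0.25 (SD, n = 3).

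Of the 24 peaks, 8 lay over an annotated transcript start of their gene, 8 in an intron, 4 upstream, 2 in an exon and 2 downstream (GENCODE vM21). No peak covered a start of Cldn7 or Cldn15. The Cldn2 peak over a start (X, 139805851 to 139806450) lay over the start of a shorter annotated transcript 5.32 kb into the gene and not over the main start. The Tjp1 start peak lay over the RefSeq start, 157 kb into the annotated gene, and no peak covered the most upstream annotated start of Tjp1. The Cldn3 start peak (chromosome 5, 134985151 to 134988450) also overlaps Wbscr25, so its reads cannot be assigned to Cldn3 alone. Peaks over a start had a median GC content of 56.6% and a median observed to expected CpG ratio of 0.580, and those elsewhere 46.1% and 0.248, beside 53.2% and 0.472 over all 21079 promoter peaks. Promoter peaks are those within 1 kb of an annotated start of any gene, a looser rule than lying over a start of the peak's own gene. The Cldn2 start peak was poor in CpG for its kind, at 45.2% GC and a ratio of 0.167, and the Tjp1 start peak was the richest, at 63.2% and 0.896.

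**Figure D1:**
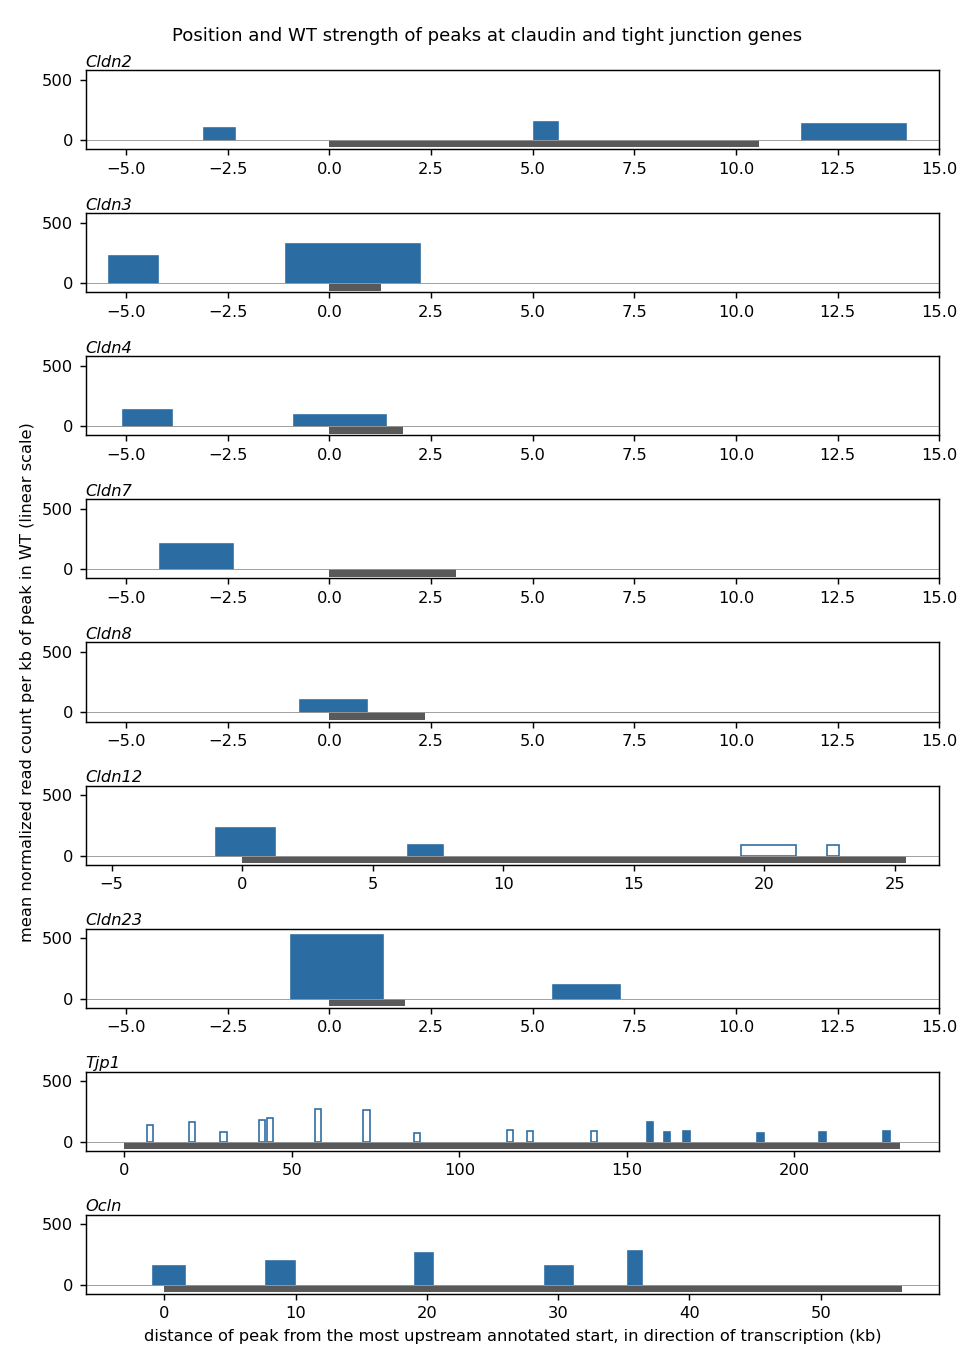
Peaks by distance from the most upstream annotated start (kb, direction of transcription) against mean WT reads per kb of peak (linear normalized scale), n = 3; grey blocks below 0 are the genes, filled bars are peaks named for the gene, open bars are other peaks inside it, and narrow peaks are drawn wider than they are. The tallest bar is the Cldn23 start peak at 525, and 11 open bars lie in the upstream part of Tjp1.

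Per kb of peak, the strongest claudin site in WT was the start of Cldn23, a little studied claudin gene (chromosome 8, 35825251 to 35827500). It had 564, 341 and 671 normalized reads per kb in the 3 WT libraries, a mean of 525 ± 168 (SD, n = 3), and the 3 KO libraries gave 504, 296 and 793. It was the highest of the 24 in each of the 6 libraries and stood at percentile 99.8 of all peaks. The Cldn3 start peak followed at 299, 305 and 371 in WT (mean 325 ± 40.1) and 303, 259 and 474 in KO. The intronic Ocln peak (chromosome 13, 100516351 to 100517400) came next with 228, 264 and 342 (mean 278 ± 58.1). The strongest named peak of each of the other genes was lower still, at 231 ± 111 for the Cldn12 start, 211 ± 68.5 upstream of Cldn7, 167 ± 48.7 at the Tjp1 start, 152 ± 52.7 at the inner Cldn2 start, 136 ± 15.3 upstream of Cldn4 and 102 ± 38.3 at the Cldn8 start. This order covers named peaks only. Unnamed peaks inside Tjp1 reached means of 267 (chromosome 7, 65469301 to 65470800) and 263 (65455051 to 65455950) in WT, above the Tjp1 start peak.

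The ranges of the 3 WT libraries overlapped for every adjacent pair in this order. All peaks were read in the same libraries, so a shift of a whole library widens these ranges. Within each of the 6 libraries the Cldn23 start peak was above the Cldn3 start peak. The Cldn3 start peak was above the Ocln peak in each of the 3 WT libraries, but below it in KO1 and KO2. Ranges further apart in the order did separate, without a test. The Cldn23 range lay above those of Cldn12 and of every gene after it in the order, the Cldn3 range above those of Cldn7 and every gene after it, and the Ocln range above those of the Tjp1 start peak and every gene after it. The neighbouring sealing claudin genes Cldn3 and Cldn4 on chromosome 5 had unlike start peaks. The Cldn4 start peak (134945551 to 134947800) had 78.5, 110 and 84.4 reads per kb in WT and 97.9, 102 and 94.0 in KO, below the Cldn3 start peak in each of the 6 libraries. It was also below the Cldn4 upstream peak (134950801 to 134952000) in each of them, at 121, 152 and 136 in WT and 114, 103 and 143 in KO.

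**Figure D2:**
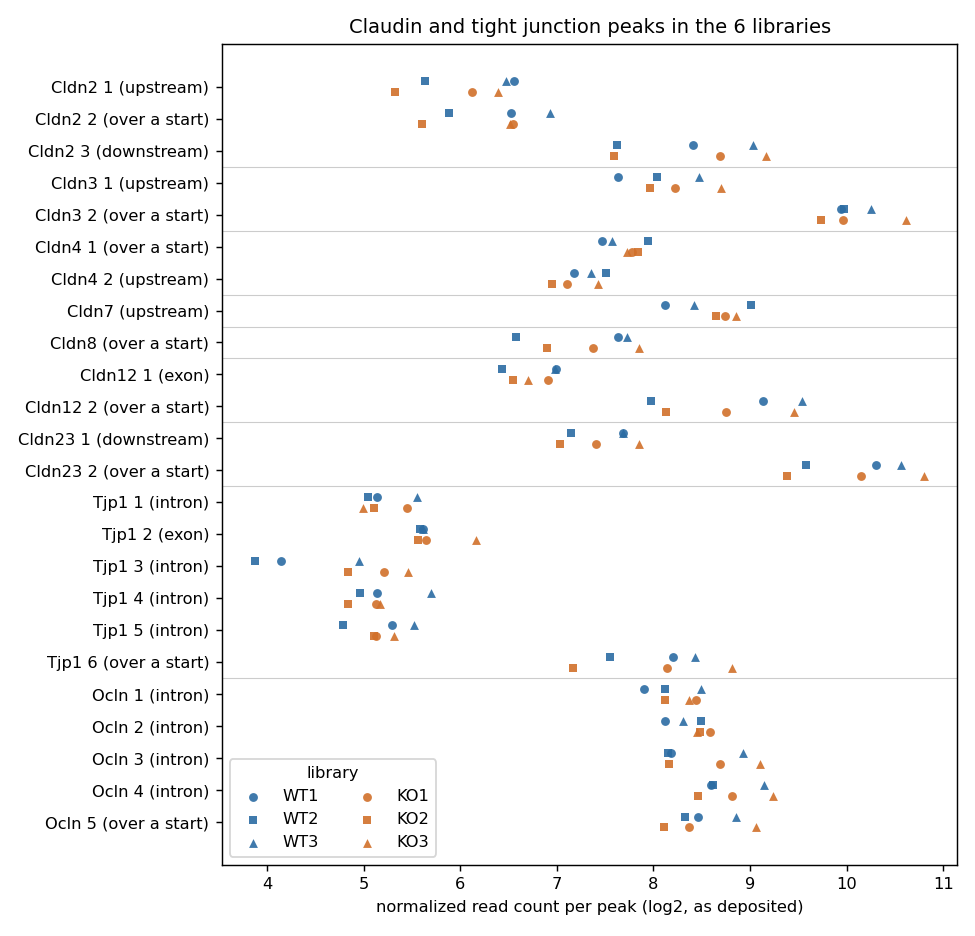
Normalized read count of each of the 24 peaks (log2, as deposited, not divided by width) in 3 WT (blue) and 3 KO (orange) libraries, with the library number as the symbol; peaks of a gene are numbered along the chromosome. The ranges of the blue and the orange points overlap at every peak.

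KO and WT libraries were compared at every peak with limma. None of the 24 peaks was called at an adjusted p below 0.05, beside 0% of all 123510 peaks. The authors' own count test (edgeR) did report sites with changed accessibility, so the 0% holds for limma on the deposited values. At an unadjusted p below 0.05 there was 1 of 24, beside 2.28% of all peaks, and no peak had all its KO values on a single side of all its WT values, beside 6.80% of all peaks. KO minus WT (log2) ran from -0.28 to 0.84 over the 24 peaks with a median of 0.01, next to -0.02 over all peaks, and 12 peaks were higher and 12 lower. The standard error of a single peak was 0.26 to 0.44, and the 95% confidence interval reached a median of 0.70 to either side. Shifts smaller than that were not detectable at a typical member, and larger shifts could also go uncalled. The adjustment over all 123510 peaks asks for more than an interval that excludes 0, and the lowest adjusted p of all peaks was 0.1435 in limma. With voom on the recovered reads, 0 of the 24 peaks were called and 1 had an unadjusted p below 0.05. Over all 123510 peaks voom called 3 and gave 2947 an unadjusted p below 0.05.

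**Figure D3:**
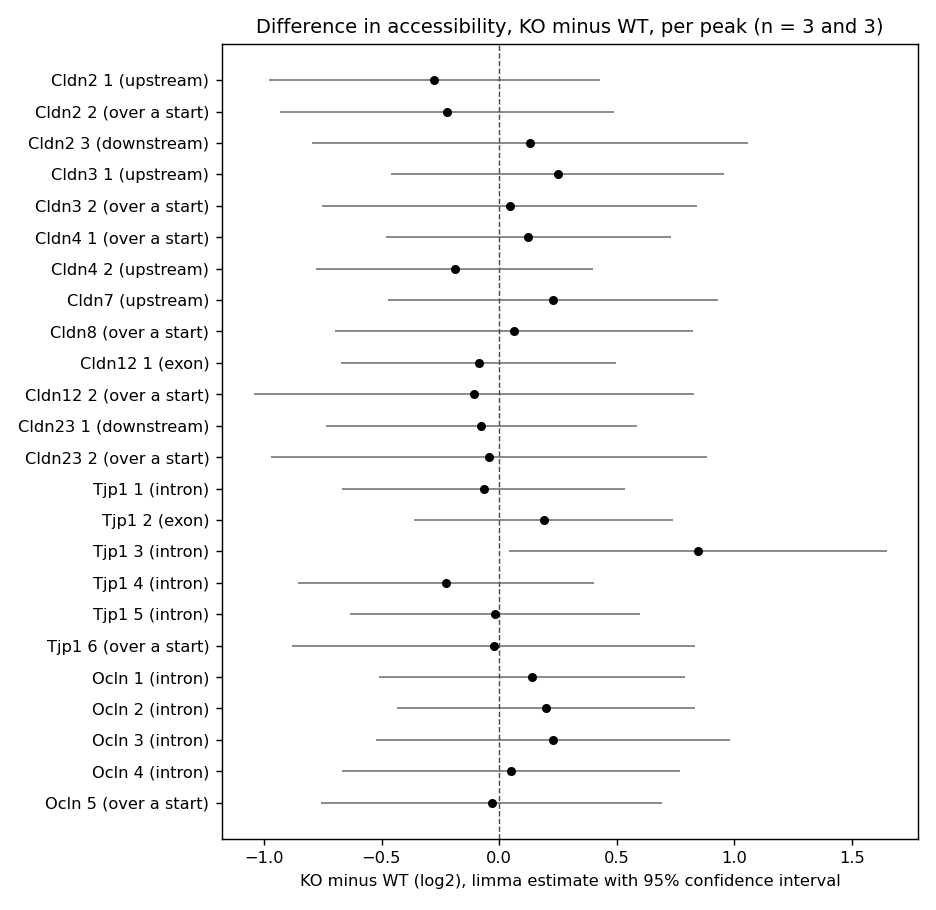
KO minus WT (log2) for each of the 24 peaks, as the limma estimate (point) with its 95% confidence interval (line), n = 3 and 3. Only the interval of the third Tjp1 peak, 0.04 to 1.65, does not reach 0.

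The pore-forming claudin Cldn2 gave values in both directions. At its inner start the WT libraries had 6.53, 5.88 and 6.93 and the KO libraries 6.55, 5.61 and 6.52 (log2), with WT2 and KO2 the lowest of their groups and the groups overlapping. KO minus WT was -0.22 ± 0.33 (SE, unadjusted p = 0.519, adjusted p = 1). The upstream peak (X, 139797751 to 139798500) had 6.56, 5.63 and 6.48 in WT and 6.12, 5.33 and 6.39 in KO, a difference of -0.28 ± 0.33. The strongest by total, downstream of the gene (X, 139812451 to 139815000), had 8.41, 7.62 and 9.03 in WT and 8.69, 7.60 and 9.17 in KO, a difference of 0.13 ± 0.43. The Fis1-named peak upstream of the other pore-forming claudin, Cldn15, differed by 0.03 ± 0.30.

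Among the sealing claudins, the Cldn3 start peak had 9.94, 9.97 and 10.26 in WT and 9.96, 9.74 and 10.61 in KO. KO3 was the highest and KO2 the lowest of the 6, and the difference was 0.04 ± 0.37. The Cldn3 upstream peak (chromosome 5, 134980801 to 134982000) had 7.63, 8.04 and 8.47 in WT and 8.22, 7.96 and 8.70 in KO, a difference of 0.25 ± 0.33. For Cldn4, the start peak had 7.46, 7.95 and 7.57 in WT and 7.78, 7.84 and 7.72 in KO, the KO values lying inside the WT range, and the difference was 0.12 ± 0.28. The Cldn4 upstream peak differed by -0.19 ± 0.28. The Cldn8 start peak (chromosome 16, 88562251 to 88563900) had 7.63, 6.58 and 7.72 in WT and 7.37, 6.89 and 7.85 in KO. The number 2 library was the lowest of each group, and the difference was 0.06 ± 0.36.

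The only peak of Cldn7, upstream of the gene (chromosome 11, 69960601 to 69962400), had 8.12, 9.01 and 8.42 in WT and 8.74, 8.65 and 8.85 in KO. All KO values lay between the lowest and the highest WT value, and the difference was 0.23 ± 0.33. The Cldn12 start peak (chromosome 5, 5513701 to 5515950) had 9.14, 7.98 and 9.54 in WT and 8.75, 8.13 and 9.46 in KO, a difference of -0.11 ± 0.44, the least precise of the 24. Its exonic peak (5507251 to 5508600) differed by -0.09 ± 0.27. The Cldn23 start peak had 10.31, 9.58 and 10.56 in WT and 10.15, 9.38 and 10.80 in KO, a difference of -0.04 ± 0.43, and the peak downstream of Cldn23 (35819401 to 35821050) differed by -0.08 ± 0.31. At both Cldn23 peaks the KO libraries spanned a wider range than the WT libraries.

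The single peak with an unadjusted p below 0.05 was an intronic peak of Tjp1, the scaffold gene (chromosome 7, 65337751 to 65338050). The WT libraries had 4.14, 3.88 and 4.95 and the KO libraries 5.21, 4.84 and 5.46, and the lowest KO value lay below the highest WT value. The difference was 0.84 ± 0.38 (95% confidence interval 0.04 to 1.65, unadjusted p = 0.0407, adjusted p = 1). It was the weakest of the 24 peaks in WT and rested on 8 to 31 reads per library. The Tjp1 start peak (65370151 to 65371800) had 8.20, 7.55 and 8.43 in WT and 8.14, 7.16 and 8.82 in KO, with both number 2 libraries lowest, and differed by -0.02 ± 0.40. The other 4 Tjp1 peaks had differences of -0.23 to 0.19.

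A further 11 peaks lay inside Tjp1, in introns of its longer transcripts, with no gene name from the authors. Their median KO minus WT was 0.20, next to -0.02 over all peaks, with 9 higher and 2 lower, beside 46.9% higher over all peaks. None of the 11 was called with limma, and 1 had an unadjusted p below 0.05, beside 2.28% of all peaks. That peak (65497801 to 65498550) had 5.83, 5.83 and 6.11 in WT and 6.41, 6.16 and 7.04 in KO, so that every KO library was above every WT library, and the difference was 0.61 ± 0.28 (unadjusted p = 0.0453, adjusted p = 1). A second of the 11 (65439901 to 65440950) also had groups that did not overlap, as had 6.80% of all peaks, with a difference of 0.23 ± 0.25. Both were chosen after their values were seen.

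All 5 peaks of Ocln were of middle to high strength, 152 to 278 reads per kb in WT. The start peak (100551151 to 100553550) had 8.46, 8.33 and 8.85 in WT and 8.37, 8.11 and 9.06 in KO, a difference of -0.03 ± 0.34. The strongest by total (100542751 to 100545000), an intronic site, had 8.60, 8.62 and 9.14 in WT and 8.82, 8.46 and 9.23 in KO, a difference of 0.05 ± 0.34. The 4 intronic peaks differed by 0.05 to 0.23, and the intronic peak with the smallest p (100521601 to 100523700) had 8.12, 8.49 and 8.31 in WT and 8.58, 8.48 and 8.46 in KO, a difference of 0.20 ± 0.30.

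Summing the linear values of each gene's named peaks left the genes equally close. These sums leave out the unnamed peaks inside Tjp1 and Cldn12. None of the 9 genes was called, beside 0% of all 18004 gene names, and none had an unadjusted p below 0.05, beside 0.761% of them. The differences ran from -0.10 ± 0.39 for Cldn12 to 0.23 ± 0.27 for Cldn7, and the KO and WT ranges overlapped for all 9. Ocln had the highest sum in WT (10.79 ± 0.27, SD, n = 3), then Cldn3 (10.38 ± 0.22) and Cldn23 (10.37 ± 0.48), and Cldn8 had the lowest (7.31 ± 0.63). Over the 6 libraries, the centred profile of Cldn2 was nearest to those of Esam and Cldn23 (Euclidean distances of 0.321 and 0.354 on the log2 scale, against a median of 0.802 over 39 genes compared), that of Cldn4 to Pard6b and Bves (0.353 and 0.425, median 0.856), and that of Cldn23 to Tjp1 and Cxadr (0.278 and 0.302, median 0.635). WT2 and KO2 were the lowest of their groups for Cldn2, Cldn23 and Tjp1. Their part in these distances was not tested.

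**Figure D4:**
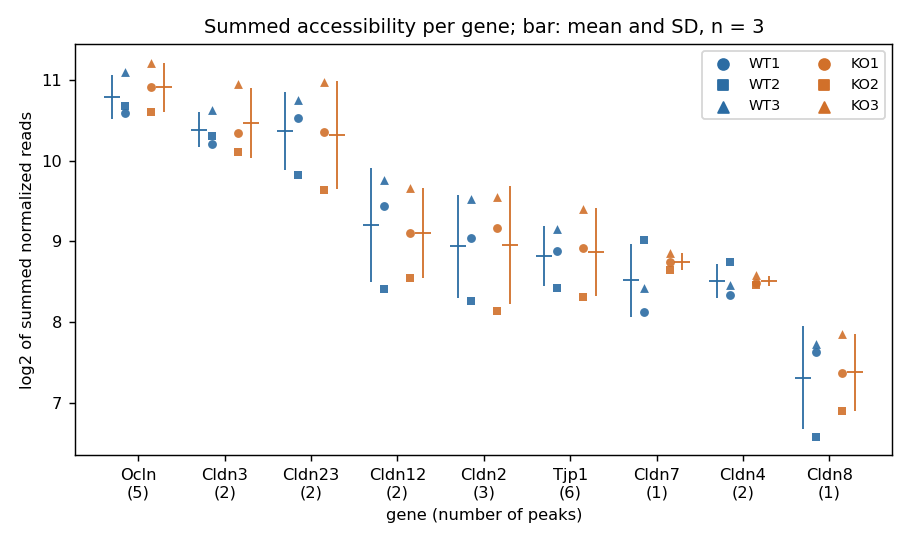
Summed accessibility (log2 of the summed linear values) of the 9 genes in the 6 libraries, with the mean and SD of each group (n = 3) and the number of peaks in brackets. WT and KO ranges overlap at every gene, and the number 2 libraries (squares) are lowest for Cldn2, Cldn8, Cldn12, Cldn23 and Tjp1.

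The libraries numbered 2 were low at most of the peaks, and their part in the differences above was not tested beyond leaving them out. WT2 was below the mean of WT1 and WT3 and KO2 below the mean of KO1 and KO3 at 20 of the 24 peaks (83.3%), and both were above at 1, the Cldn4 start peak. Over all peaks, 55.5% were lower in both number 2 libraries, and over promoter peaks 71.9%. Across the 24 peaks the deviation of WT2 and that of KO2 had a Pearson correlation of 0.74 (0.42 over all peaks), given as a description because the points share these 2 libraries. Without both number 2 libraries, 0 of the 24 peaks were called, 0 had an unadjusted p below 0.05, and the median KO minus WT was 0.11. Over all 123510 peaks that fit called 143, gave 7403 an unadjusted p below 0.05 and had a median of -0.03.

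**Figure D5:**
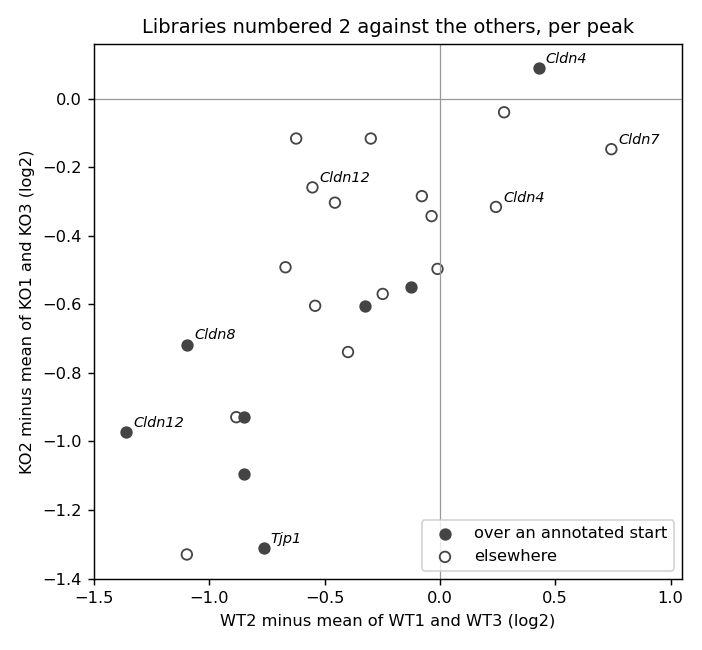
Deviation of WT2 (x axis) and KO2 (y axis) from the mean of the other 2 libraries of the group (log2) for the 24 peaks, filled where the peak lies over an annotated start. Of the 24 points, 20 lie below 0 on both axes and the Cldn4 start peak lies above 0 on both.

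The other genes of the tight junction were read from the same comparison. A list of 40 further claudins, junctional adhesion, scaffold and polarity genes had 216 peaks at 31 genes, of which 0 were called and 3 had an unadjusted p below 0.05, beside 2.28% of all peaks. Of these 3, 2 were at the polarity gene Pard3 and 1 at the scaffold gene Magi1. The median KO minus WT was 0.08, next to -0.02 over all peaks, with 136 higher (63.0%, beside 46.9% of all peaks) and 80 lower. Groups that did not overlap were found at 13 of the 216 peaks, beside 6.80% of all peaks. The strongest peaks in WT lay over starts of Magi3, a membrane-associated scaffold (10.46 ± 0.35), Pard6b, a polarity protein (10.21 ± 0.11), and Lsr, a protein of junctions where 3 cells meet (9.78 ± 0.36), and they differed by -0.04 ± 0.40, -0.03 ± 0.35 and 0.08 ± 0.38. The smallest p was at an intronic peak of Pard3 (chromosome 8, 127569151 to 127569900), with 5.50, 4.88 and 5.52 in WT and 6.17, 6.19 and 5.80 in KO. All KO values were above all WT values there, and the difference was 0.76 ± 0.27 (unadjusted p = 0.0138, adjusted p = 1).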

How the data were processed

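ATAC-seq reads from nuclei of whole small intestinal crypts were trimmed by the authors with Trim Galore (0.4.1), mapped to GRCm38 with Bowtie2 (2.2.5) and imported into SeqMonk without duplicates, where 1 set of MACS peaks was called for the series. Which libraries were pooled for the peak calling is not given in the sources used here. The deposited values are log2 read counts per peak that the authors scaled to the largest library. A gene name was given by the authors to peaks within 5 kb. A second deposited table of peaks past the authors' edgeR threshold, with their p-values, was not used.

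The 24 peaks, the gene lists and the tests were chosen with earlier results of these data known. KO and WT were compared at all 123510 peaks with limma (3.58.1, R 4.3.3; lmFit and eBayes with trend, two-sided, no covariate) in place of the authors' count test, because the deposited unit is log2, and the Benjamini-Hochberg adjustment ran over all of them, with a threshold of 0.05. For genes, linear values were summed over the peaks of a name before the fit. On the linear scale, 100% of the values were whole multiples of the worth of 1 read (tolerance of 0.1 read), which gave the depth. The fits were tested on simulated counts drawn independently for each library. The simulation left out the likeness of same-numbered libraries, so it cannot show how the fits behave with it. Named peaks were, for each gene, the highest in WT, the nearest to an annotated start within 1 kb and the one with the smallest p, and for the other tight junction genes the 3 strongest and the smallest p. Positions are from GENCODE vM21 and promoters from RefSeq, which held 8 of the 10 genes. The promoter windows of Cldn8 and Cldn23 are not shown, and that of Cldn15 overlaps an annotated exon and was left out. Nothing in the labels says that the libraries came from separate animals, so p-values measure only the spread between these libraries. The confidence intervals come from the same limma fits, so they too measure only the spread between these libraries. The reads carry no molecular identifiers, and no interval was taken from read counting alone. Alternatives were other scalings (median, trimmed mean of M values, quantile), voom on recovered reads, a minimum mean of 20 reads, a pseudocount of 5, the replicate number as a block, each library or both number 2 libraries left out, a threshold of 0.1 and other rules for assigning peaks.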

Additional observations from a re-analysis of the deposited data

How the results depend on the processing

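In the 14 alternative fits, 0 of the member peaks tested, 0 of the 9 genes and 0 of the 216 other tight junction peaks were called, and the number of member peaks with an unadjusted p below 0.05 was 0 to 1. Over the whole table these fits called 0 to 272 peaks and 0 to 37 genes, and 1166 to 8491 peaks had an unadjusted p below 0.05. The minimum mean of 20 reads removed the intronic Tjp1 peak with the smallest p and left 23 peaks. None of these had an unadjusted p below 0.05, beside 1930 of the 99452 peaks kept. The median KO minus WT of the members ranged from -0.16 (without KO3) to 0.22 (without KO2) when a library was left out, was -0.15 without WT2, 0.16 without WT3 and 0.11 without both number 2 libraries, and lay between -0.02 and 0.04 under the other settings, so its sign depended on the libraries included. Of 307 values of the 22 named peaks, 42 changed sign and none passed the threshold. With peaks assigned by the annotation, 31 overlapped a member gene and 40 lay within 5 kb of one, and 19 of the 24 had a WT mean of at least 64 on the linear scale. The correlation of same-numbered libraries, after the group means were removed, was 0.04, 0.42 and 0.41 for numbers 1, 2 and 3, and no label says that a number marks a litter or a day. With the replicate number as a block, 272 peaks and 37 genes were called over the whole table and 0 members, with a lowest adjusted p among members of 0.633 in limma, and 15 of the 216 other tight junction peaks had an unadjusted p below 0.05 against 3 without the block, beside 8491 and 2821 of all 123510 peaks. The number of reads, 8 to 31 per library at the weakest member, limits what could be detected there.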
